A study of Mus musculus with 9 samples.

Results

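The genes described here encode 7 C-type lectin receptors of myeloid cells, Clec4d, Clec4e, Clec4n, Clec4a2, Clec5a, Clec7a and Clec12a, which were found by gene symbol among 22064 listed genes, and all 7 carried values and passed the filter on low counts that left 14108 genes for testing. They were picked because Clec4d and Clec4e stood higher in Ly6g-low than in Ly6g-high neutrophils of metastatic lung, so the values of all 7 in that comparison are given as a description, without a test. Bulk RNA was sequenced from 9 libraries, 3 in each of 3 groups of CD45+ cells sorted by flow cytometry from lungs of female BALB/c mice that were bought at 6 to 8 weeks of age. The Ly6Ghi and Ly6Glow groups were the Ly6g-high and Ly6g-low gates from macrometastatic lungs, the late stage with large nodules, after 4T1-LM3 mammary carcinoma cells had been injected into the mammary fat pad. The NL group was the Ly6g-high gate from normal lungs. The sources used here do not state whether a library was 1 mouse or a pool, so p-values measure only the spread between these libraries, which may be technical, and in bulk RNA fewer cells of a type and less RNA per cell cannot be told apart.

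C-type lectin receptors are surface proteins through which macrophages, dendritic cells and neutrophils sense sugars and lipids of microbes and material from dying cells. Activating members signal through an immunoreceptor tyrosine-based activation motif (ITAM), carried by the adaptors FcR gamma (Fcer1g) or DAP12 (Tyrobp) or, as a single-tyrosine hemITAM, by the receptor itself, and pass the signal through the kinase Syk and the Card9-Bcl10-Malt1 complex to NF-kB. Inhibitory members carry an ITIM, which recruits phosphatases such as the product of Ptpn6. Clec4e (Mincle) binds mycobacterial cord factor and the nuclear protein Sap130 released by dying cells, Clec4d (MCL) is its partner receptor, and Clec4n (dectin-2) binds fungal mannans. These 3 signal through FcR gamma. Clec5a (MDL-1) pairs with DAP12, Clec7a (dectin-1) is the hemITAM receptor for fungal beta-glucan, and Clec4a2 (DCIR) and Clec12a (MICL) carry ITIMs.

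All 7 genes lie on mouse chromosome 6 (GRCm38.p6, RefSeq). Clec4a2 (chr6:123122690-123143999, plus strand), Clec4n (chr6:123229843-123247024, plus), Clec4d (chr6:123262107-123275268, plus) and Clec4e (chr6:123281789-123289871, minus) lie in this order, with 85.8, 15.1 and 6.52 kb between them in turn. The related gene Clec4b2 lies between Clec4a2 and Clec4n. Clec12a (chr6:129349783-129365303, plus) and Clec7a (chr6:129461591-129472785, minus) lie 96.3 kb apart in a further cluster, and Clec5a (chr6:40574898-40585805, minus) lies away from both. Promoter windows of 300 bases, from 250 before to 50 after the start site, were on hand in RefSeq for 6 of the 7 genes, all but Clec4n. The windows of Clec4d (chr6:123261857-123262156, plus strand), Clec4e (chr6:123289822-123290121, minus strand) and Clec12a (chr6:129349994-129350293, plus strand) are shown because the first pair are the genes with the largest differences toward the Ly6g-low gate among the 7 and Clec12a has the largest toward the Ly6g-high gate. Capitals mark the core bound by PU.1, the myeloid factor encoded by Spi1 (GAGGAA, or TTCCTC on the other strand), and the C/EBP motif TTGCNNAA, or TTNNGCAA on the other strand. No marked matches overlap. The start site of the Clec12a window lies inside the span given for the gene.
Clec4d: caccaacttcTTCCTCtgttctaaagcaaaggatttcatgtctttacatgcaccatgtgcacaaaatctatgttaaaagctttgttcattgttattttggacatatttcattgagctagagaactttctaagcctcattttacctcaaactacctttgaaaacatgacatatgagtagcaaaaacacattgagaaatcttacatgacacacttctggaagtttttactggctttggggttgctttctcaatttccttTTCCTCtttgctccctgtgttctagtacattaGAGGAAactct
Clec4e: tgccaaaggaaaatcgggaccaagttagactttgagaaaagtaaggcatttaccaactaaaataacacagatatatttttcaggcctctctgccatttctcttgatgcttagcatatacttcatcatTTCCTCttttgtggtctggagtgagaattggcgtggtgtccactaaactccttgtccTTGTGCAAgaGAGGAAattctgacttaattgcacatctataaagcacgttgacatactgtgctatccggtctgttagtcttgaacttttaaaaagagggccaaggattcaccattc
Clec12a: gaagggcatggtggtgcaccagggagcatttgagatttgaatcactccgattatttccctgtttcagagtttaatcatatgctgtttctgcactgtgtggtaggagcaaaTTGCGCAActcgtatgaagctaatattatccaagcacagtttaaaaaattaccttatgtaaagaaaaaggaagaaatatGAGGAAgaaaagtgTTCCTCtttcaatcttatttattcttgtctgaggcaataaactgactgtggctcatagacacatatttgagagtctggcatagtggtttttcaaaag

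The PU.1 core occurred 3 times in the Clec4d window, at 240 bases before the start site and at 7 and 39 bases after it. Clec4e held it 2 times, at 123 and 56 bases before the start site, with a C/EBP match 66 bases before it. Clec12a also held 2 PU.1 cores, at 61 and 47 bases before the start site, and a C/EBP match at 140. Clec5a held 2 PU.1 cores, Clec7a 1 and Clec4a2 0, without a C/EBP match in any of these 3. Of all 32851 mouse promoter windows of the same length, 28.3% held the PU.1 core and 10.8% the C/EBP motif, on either strand. The NF-kB consensus was sought only on the strand as written. It was held by 5.89% of all windows and had no match in those of the 6 genes. These matches are a description of the letters.

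Total estimated counts were 15267177 to 17841807 per library, and levels are given as counts per 1000000 counts after TMM scaling (CPM). The biological coefficient of variation over all groups was 0.0346. NL replicate 2 stood somewhat apart, with a chi-square per degree of freedom over genes of 5.36 and 4.09 against the other NL libraries, where all other pairs of replicates gave 1.40 to 2.50. It was the highest of its group for 6 of the 7 receptor genes, as was replicate 3 for 6 of 7 in Ly6Glow and for 5 of 7 in Ly6Ghi. Ly6g itself, the gene of the sorting antigen, stood at 374 ± 10.8 CPM in Ly6Ghi and 394 ± 9.32 CPM in Ly6Glow (SD, n = 3). The log2 difference of 0.08 did not pass the test in the main fit (adjusted p = 0.0577, edgeR). Fitted on only the 6 libraries of both gates it was 0.08 (adjusted p = 0.0114, edgeR), and by DESeq2 0.14 (adjusted p = 0.000406). On the FPKM scale it was -0.16 (adjusted p = 0.000635, limma). Its mRNA was thus not lower in the Ly6g-low gate on the CPM scale. The 10 neutrophil markers, among them S100a8, S100a9 and Csf3r, summed to 18420 to 18673 CPM in NL, 71168 to 73014 in Ly6Ghi and 76499 to 78219 in Ly6Glow.

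**Figure D1:**
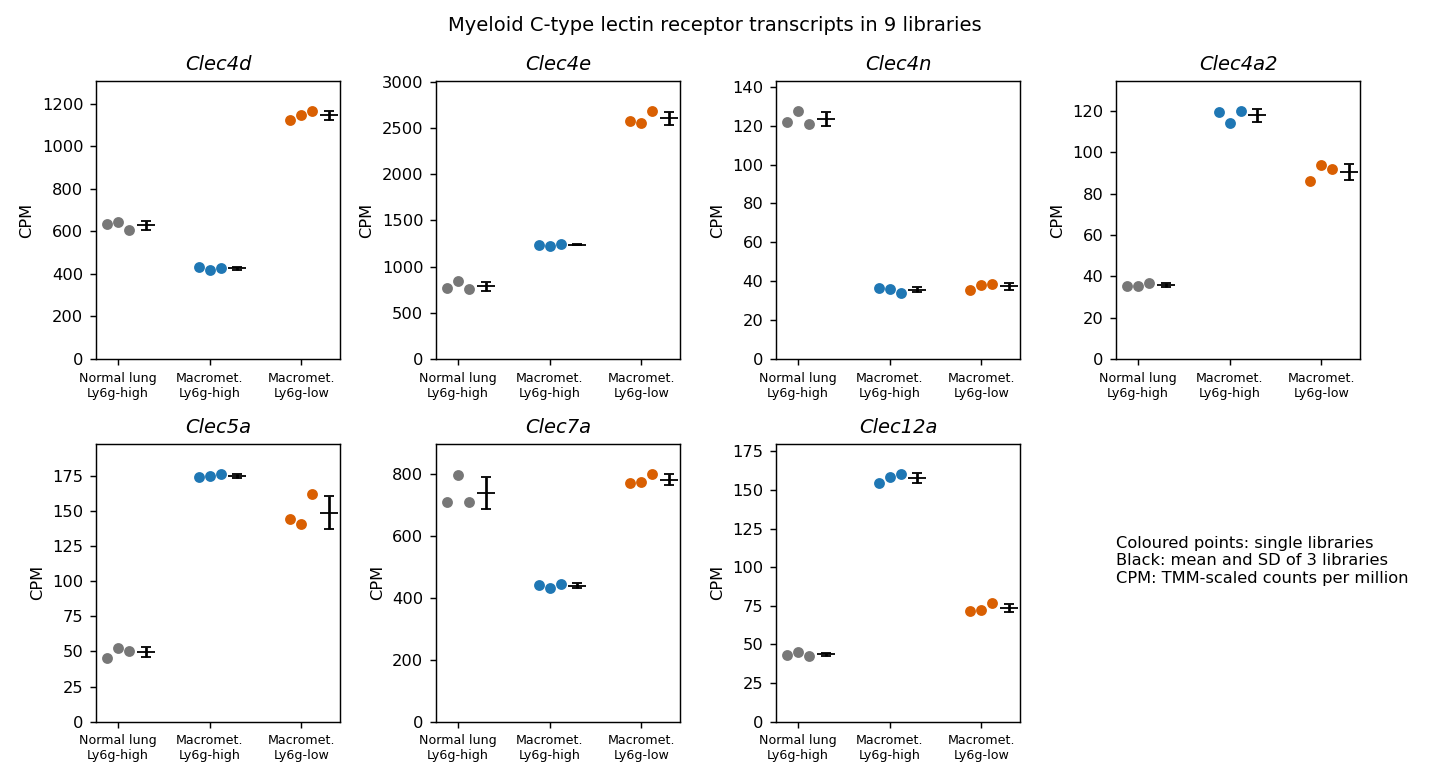
Level of each receptor gene in CPM (linear axes from 0) in the single libraries of the 3 groups, with the mean and SD of 3 libraries beside them. Clec4d and Clec4e are highest in Ly6Glow, Clec4n in NL, and Clec4a2, Clec5a and Clec12a in Ly6Ghi, while the NL and Ly6Glow points of Clec7a overlap.

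Among the receptors that couple to FcR gamma, Clec4e read 769, 844 and 753 CPM in the NL libraries, 1238, 1228 and 1241 in Ly6Ghi and 2574, 2550 and 2686 in Ly6Glow. The groups did not overlap, with NL lowest and Ly6Glow highest. Its mean was 2603 ± 72.6 CPM in Ly6Glow against 1235 ± 6.94 in Ly6Ghi (SD, n = 3), a fitted log2 difference of 1.08 (SE 0.04), or 2.11-fold. Clec4d read 633, 646 and 605 CPM in NL, 431, 419 and 429 in Ly6Ghi and 1121, 1146 and 1166 in Ly6Glow. Here too the groups did not overlap, but Ly6Ghi was the lowest, so the order of the first pair of groups was the opposite of that of Clec4e. The difference of Clec4d between Ly6Glow and Ly6Ghi was 1.43 on the log2 scale (SE 0.03), or 2.69-fold.

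The third gene of this type, Clec4n, read 122, 128 and 121 CPM in NL, 36.5, 36.1 and 34.1 in Ly6Ghi and 35.3, 38.2 and 38.5 in Ly6Glow. Its level was set apart by normal against metastatic lung, and both gates of the metastatic lung overlapped, with a log2 difference between them of 0.07 (SE 0.06) that was -0.16 on the FPKM scale. Clec4n lies 15.1 kb from Clec4d. The adjacent genes Clec4d and Clec4e were picked for being higher in Ly6Glow, so the direction they share between the gates is no result. The log2 difference of Ly6Ghi from NL was -1.80 for Clec4n (SE 0.05, adjusted p = 3.63e-19, edgeR), while it was -0.56 for Clec4d and 0.65 for Clec4e.

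The hemITAM receptor Clec7a read 710, 798 and 709 CPM in NL, 441, 431 and 446 in Ly6Ghi and 771, 775 and 802 in Ly6Glow. NL and Ly6Glow overlapped and both lay above every Ly6Ghi library. Its log2 difference between Ly6Glow and Ly6Ghi was 0.83 (SE 0.04). The DAP12 partner Clec5a read 45.6, 52.3 and 50.3 CPM in NL, 174, 174 and 177 in Ly6Ghi and 144, 140 and 162 in Ly6Glow. Every library of metastatic lung was above the NL libraries, and Ly6Glow was below Ly6Ghi by -0.23 on the log2 scale (SE 0.05).

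Of the ITIM receptors, Clec12a read 42.9, 44.9 and 42.8 CPM in NL, 154, 158 and 161 in Ly6Ghi and 71.4, 72.5 and 76.6 in Ly6Glow. It had the largest difference toward Ly6Ghi among the 7 genes, with a log2 value for Ly6Glow against Ly6Ghi of -1.10 (SE 0.04), a ratio of 0.466. Clec4a2 read 35.3, 35.5 and 36.7 CPM in NL, 119, 114 and 120 in Ly6Ghi and 86.0, 93.5 and 91.9 in Ly6Glow. The groups of both ITIM receptors did not overlap and followed the same order, NL lowest and Ly6Ghi highest, but Clec4a2 differed less between the gates (log2 -0.38, SE 0.04). Transcripts of Clec4a2 share 2.14% of their 100-base words with the related gene Clec4a4, so a small part of its reads may be divided between these genes. The other 6 genes shared none.

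Taking a log2 difference beyond 0.58 in size as the bound, 3 receptor genes were higher in Ly6Glow than in Ly6Ghi (Clec4d, Clec4e and Clec7a) and 1 was lower (Clec12a). Over all 14108 genes 12.0% lay beyond the bound toward Ly6Glow and 19.4% toward Ly6Ghi, 31.4% in either direction. Clec7a at 0.83 was the nearest to the bound of the genes beyond it, and Clec4a2 at -0.38 of those within it. Between the gates 6 of the 7 genes did not overlap, where 62.1% of all genes did not. Of the 3 that were higher, Clec4d and Clec4e had been picked for it, so signalling types cannot be compared on this count. The activating Clec4n (0.07) and Clec5a (-0.23) and the inhibitory Clec4a2 lay within the bound. On the FPKM scale (log2 of FPKM plus 1, with limma) Clec4a2 was also beyond the bound, at -0.64, and Clec7a was just beyond it at 0.59. Clec5a was at -0.46 on that scale.

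**Figure D2:**
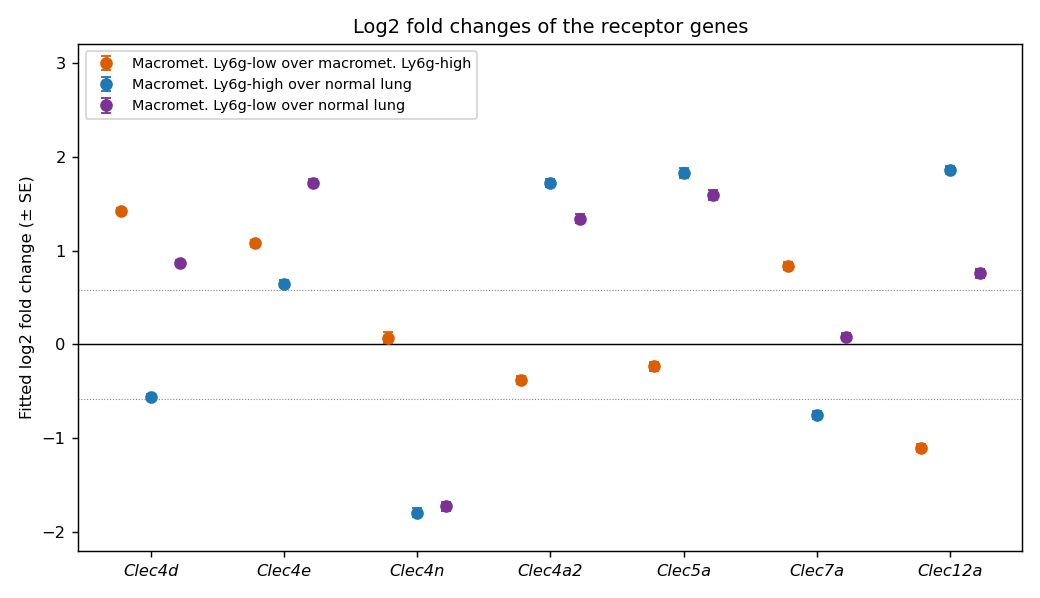
Fitted log2 fold changes (y axis, bars are SE from 3 libraries a group) of the 7 receptor genes in the 3 comparisons, with dotted lines at a log2 change of 0.58 in both directions. Clec4d is below 0 for Ly6Ghi over NL (-0.56) and above 0 for Ly6Glow over NL (0.87), whereas Clec4n is low in both (-1.80 and -1.73).

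The comparison of Ly6Ghi with NL sets the Ly6g-high gate of metastatic lung against that of normal lung, where the summed neutrophil markers were lower. A gene was called where the adjusted p of edgeR's quasi-likelihood test was at most 0.05 and the log2 difference was beyond 0.58. Among the 5 genes other than Clec4d and Clec4e, 3 rose and 2 fell, against 26.3% of all tested genes called higher and 36.6% called lower, 62.9% in all. Clec12a rose by 1.86 (SE 0.04, adjusted p = 3.07e-20, edgeR), Clec5a by 1.82 (SE 0.05, adjusted p = 1.9e-18) and Clec4a2 by 1.72 (SE 0.05, adjusted p = 3.82e-19), each above NL in every library. Beside Clec4n, Clec7a fell, with a log2 change of -0.75 (SE 0.04, adjusted p = 7.36e-14, edgeR). The libraries of Ly6Ghi also entered the contrast from which Clec4d and Clec4e were picked, so the values of this pair are a description. With Clec4e the called genes were 6 of 7, and 7 of 7 did not overlap, where 85.2% of all genes did not. Clec4e was no longer beyond the bound with upper-quartile scaling (log2 0.45), with at least 10 counts in every library (0.47) and on the FPKM scale (0.19), while Clec4d passed it under each of these (-0.75, -0.73 and -1.02). Clec4d also passed it without NL replicate 3 (-0.583).

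Ly6Glow was compared with the same NL libraries, so the values of both comparisons are not independent. Clec4a2 rose by 1.34 (SE 0.05, adjusted p = 5.52e-17, edgeR), Clec5a by 1.59 (SE 0.05, adjusted p = 2.78e-17) and Clec12a by 0.76 (SE 0.05, adjusted p = 1.06e-12). The log2 change of Clec4n was -1.73 (SE 0.05, adjusted p = 1.01e-18, edgeR). Clec7a differed by 0.08 (SE 0.04, adjusted p = 0.052, edgeR), and did not pass the test. This value was not stable. By DESeq2 it was 0.17 with an adjusted p of 0.000139, and without NL replicate 2 it was 0.14 with an adjusted p of 8.99e-06 by edgeR, both within the bound. With upper-quartile scaling it was -0.11 (adjusted p = 0.019, edgeR), and on the FPKM scale it was -0.61 and called lower (adjusted p = 1.4e-07, limma). Thus 4 of the 5 genes were called, 3 higher and 1 lower, where 69.5% of all genes were called, 28.7% higher and 40.8% lower. Of the 7 genes 6 did not overlap, where 86.8% of all genes did not. Clec4d stood 0.87 and Clec4e 1.72 above NL on the log2 scale. Clec12a was within the bound with upper-quartile scaling (0.57), and on the FPKM scale Clec12a (0.07), Clec4d (0.17) were too, as was Clec4a2 (0.578).

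Levels were compared between genes in the deposited FPKM, which divides fragments by transcript length and library size. In NL the order was Clec4d (638 ± 25.1 FPKM), Clec7a (460 ± 36.2), Clec4e (419 ± 29.8), Clec4n (139 ± 5.60), Clec4a2 (46.5 ± 1.55), Clec12a (41.5 ± 1.69) and Clec5a (17.3 ± 1.40; SD, n = 3 each), and only Clec7a and Clec4e overlapped among neighbours in the order. In Ly6Ghi Clec4e led with 475 ± 2.71 FPKM, before Clec4d (314 ± 4.46), Clec7a (198 ± 3.48), Clec12a (110 ± 1.67), Clec4a2 (109 ± 2.58), Clec5a (44.4 ± 0.434) and Clec4n (29.0 ± 0.894), and only Clec12a and Clec4a2 overlapped. In Ly6Glow the order was Clec4e (850 ± 24.9), Clec4d (716 ± 14.0), Clec7a (300 ± 6.75), Clec4a2 (69.9 ± 2.84), Clec12a (43.7 ± 1.67), Clec5a (32.0 ± 2.54) and Clec4n (25.9 ± 1.28), without overlap between neighbours. Clec4n was the fourth of the 7 receptors in normal lung and the last in both gates of metastatic lung. Clec4e was abundant in every group, where 119 genes had a higher FPKM in NL, 132 in Ly6Ghi and 72 in Ly6Glow. For Clec4d these numbers were 63, 225 and 85.

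A ratio of values within a library is the same under any scaling of the libraries. Clec4d amounted to 1.47 to 1.58 times the FPKM of its partner Clec4e in NL, 0.653 to 0.666 times in Ly6Ghi and 0.832 to 0.861 times in Ly6Glow. Clec4d was thus the more abundant of the pair in NL libraries and the less abundant in every metastatic library. The ITIM receptors made up 4.80 to 5.24% of the summed FPKM of the 7 genes in NL, 17.1 to 17.2% in Ly6Ghi and 5.46 to 5.69% in Ly6Glow. The receptors coupled to FcR gamma made up 67.4 to 68.6%, 63.7 to 64.0% and 78.1 to 78.2% in the same order, and Clec7a 25.5 to 26.8%, 15.4 to 15.6% and 14.7 to 14.8%. The ITIM share was largest in Ly6Ghi and the FcR gamma-coupled share in Ly6Glow. Clec4d and Clec4e, picked for being higher in Ly6Glow, enter the FcR gamma-coupled sum and the total. Signalling types therefore cannot be compared between the gates on these shares, which are a description of genes picked on a part of the same values.

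**Figure D3:**
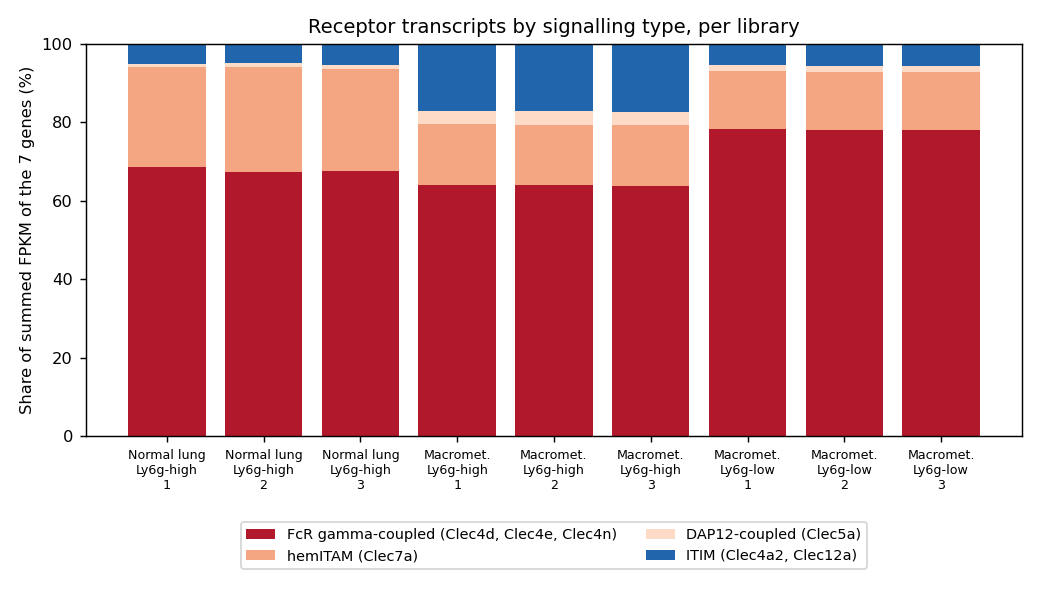
Share (%) of the summed FPKM of the 7 receptor genes by signalling type in each of the 9 libraries, grouped as NL, Ly6Ghi and Ly6Glow from left to right. The ITIM segment is 17.1 to 17.2% in Ly6Ghi and at most 5.69% in the libraries of the other groups. Clec4d and Clec4e, picked for being higher in Ly6Glow, are part of the total.

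The samples differed in markers of neutrophils, of neutrophil maturity and of other cells. The paper described Ly6g-low neutrophils as relatively immature by nuclear shape, and it named Cramp (Camp) as a mature-associated marker. Of the 10 neutrophil markers 9 rose in Ly6Ghi against NL and 9 in Ly6Glow against NL, with median log2 differences of 1.64 and 1.94. Between the gates 4 of them rose in Ly6Glow and 0 fell. Of all tested genes, 26.3% were called higher and 36.6% lower for Ly6Ghi against NL, and 28.7% and 40.8% for Ly6Glow against NL. The shares were 9.29% and 15.9% for Ly6Glow against Ly6Ghi. Clec4n was highest in NL and Clec7a was higher in NL than in Ly6Ghi, and in NL 13 alveolar macrophage markers (Ear2, Marco and Pparg among them) summed to 824 to 846 CPM, against 271 to 283 in Ly6Ghi and 57.9 to 58.5 in Ly6Glow. Of these markers 11 of 13 fell in Ly6Ghi against NL and 10 of 13 fell in Ly6Glow against Ly6Ghi. Between the gates, where these markers fell, Clec4n overlapped and Clec7a was higher in Ly6Glow. Clec4a2, Clec5a and Clec12a were highest in Ly6Ghi. There 10 genes listed here for immature neutrophils (Camp, Ltf, Ngp and Elane among them) summed to 35688 to 36424 CPM. These genes summed to 6337 to 6623 in NL and 12876 to 13399 in Ly6Glow. Of these, 9 of 10 rose in Ly6Ghi against NL and 9 of 10 fell in Ly6Glow against Ly6Ghi. The 5 eosinophil markers moved alike, at 79.5 to 85.9 CPM in Ly6Ghi, 3.01 to 4.24 in NL and 7.24 to 8.35 in Ly6Glow, with 5 of 5 called in both comparisons. The 14 monocyte and macrophage markers summed to 822 to 844 CPM in NL, 733 to 741 in Ly6Ghi and 626 to 645 in Ly6Glow, and 9 dendritic cell markers to 57.5 to 63.3, 20.4 to 22.5 and 19.8 to 21.8. Basophil and mast cell markers stood at 25.6 to 28.1, 40.2 to 42.2 and 22.5 to 26.9 CPM, and lymphocyte markers at 49.9 to 52.6, 65.6 to 66.2 and 39.6 to 41.8, in the same order. No marker of these lists was at 0 in all libraries of a group. The part of these cells in the receptor values was not tested.

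**Figure D4:**
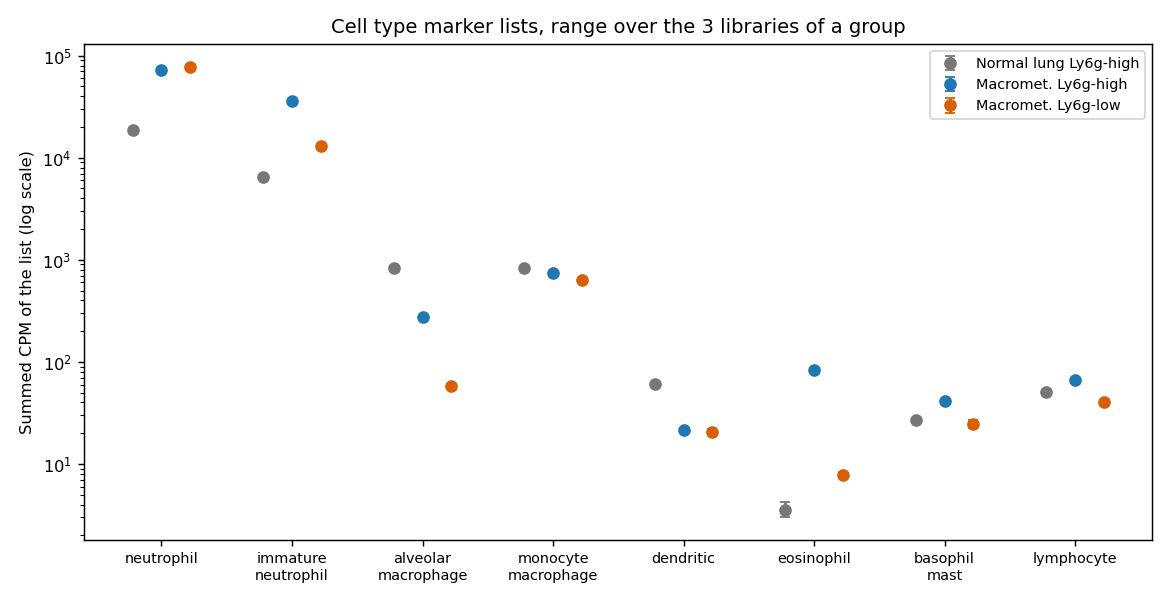
Summed CPM of each cell type marker list (log axis) in the 3 groups, where points stand at the geometric middle and bars span the lowest and the highest of 3 libraries. Alveolar macrophage markers step down from NL to Ly6Ghi to Ly6Glow, and immature neutrophil and eosinophil markers are highest in Ly6Ghi.

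The adaptor and signalling genes of these receptors were measured as a list of 31. In Ly6Glow against Ly6Ghi 7 rose and 0 fell, where 9.29% of all genes were called higher and 15.9% lower, and the median log2 difference was 0.24 against -0.04 over all genes. Cebpb, which encodes C/EBP beta, rose by 0.89 (SE 0.06, adjusted p = 8.43e-12, edgeR) from 1211 ± 22.8 to 2248 ± 154 CPM. Nfkb2 and Relb, subunits of noncanonical NF-kB, rose by 0.79 and 0.75. The further NF-kB subunit genes Rela and Rel rose by 0.67 and 0.63, and Nfkb1 was within the bound at 0.19. The kinase Syk rose by 0.60 (SE 0.03, adjusted p = 2.28e-13, edgeR). The adaptor Fcer1g (0.33), Tyrobp (0.42), Hcst (0.55), Bcl10 (0.56), Spi1 (0.24) and Card9 (0.20) were higher with an adjusted p under the threshold but within the bound, and Ptpn6 was at -0.11. Malt1 differed by 0.09 and did not pass (adjusted p = 0.153, edgeR). On the FPKM scale 1 gene of the list was called, Card9 was at -0.03 and Malt1 at -0.16.

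In Ly6Ghi against NL 17 of the 31 rose and 5 fell, where 26.3% of all genes were called higher and 36.6% lower, with a median of 0.71 against -0.09 over all genes. Card9 rose by 1.55 (SE 0.05, adjusted p = 2.16e-18, edgeR), Ptpn6 by 1.503, the lipid kinase subunit Pik3cd by 1.24, Fcer1g by 1.23, Hcst by 1.07, Spi1 by 1.02, Bcl10 by 0.94 and Tyrobp by 0.92. The ITIM receptors, the adaptors Fcer1g, Tyrobp and Hcst and the phosphatase gene Ptpn6 were all higher in the metastatic Ly6g-high gate. Ptpn11 (0.14) and Inpp5d (0.43), further phosphatase genes of the list, were within the bound. Among the receptors coupled to FcR gamma, Clec4n was at -1.80, Clec4d at -0.56 and Clec4e at 0.65. The kinase Src (-2.50), the ubiquitin ligase Cblb (-1.27), Nfatc2 (-0.72), Malt1 (-0.72, 114 against 187 CPM) and Relb (-0.61) fell. Syk (0.27) and Cebpb (0.36) were within the bound, and on the FPKM scale they were at -0.19 and -0.09. In Ly6Glow against NL 20 rose and 4 fell, where 28.7% of all genes were called higher and 40.8% lower, with a median of 0.96 against -0.16 over all genes. Card9 (1.75), Hcst (1.63) and Fcer1g (1.56) led the increases, and Src (-2.52), Cblb (-1.82) and Nfatc2 (-1.02) the decreases.

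Of 25 genes known to be induced downstream of these receptors, 14 rose and 1 fell in Ly6Glow against Ly6Ghi, where 9.29% of all genes were called higher and 15.9% lower, with a median of 0.84. Nos2, the inducible nitric oxide synthase, rose by 1.34 (SE 0.03, adjusted p = 1.56e-18, edgeR) from 313 ± 7.66 to 791 ± 17.7 CPM. Ptgs2, which encodes the prostaglandin synthase COX-2, rose by 1.28 and the inflammasome sensor gene Nlrp3 by 1.26, while the transcription factor gene Egr2 fell with a log2 change of -0.60. In Ly6Ghi against NL 3 rose and 14 fell, against 26.3% and 36.6% of all genes, with a median of -0.70. Here Nos2 rose by 3.10 and Nfkbia, the NF-kB inhibitor, by 1.58, and Egr2 (-2.07), Egr1 (-1.93) and Ptgs2 (-1.60) fell. In Ly6Glow against NL 9 rose and 8 fell, a share called in either direction near the 69.5% of all genes, with a median of -0.12, led by Nos2 (4.44), Nfkbia (2.42) and the chemokine gene Cxcl2 (1.00) upward and by Egr2 (-2.67), Il6 (-1.78) and Il1a (-1.71) downward. Many stimuli other than these receptors induce the same genes, and receptor signalling was not measured.

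**Figure D5:**
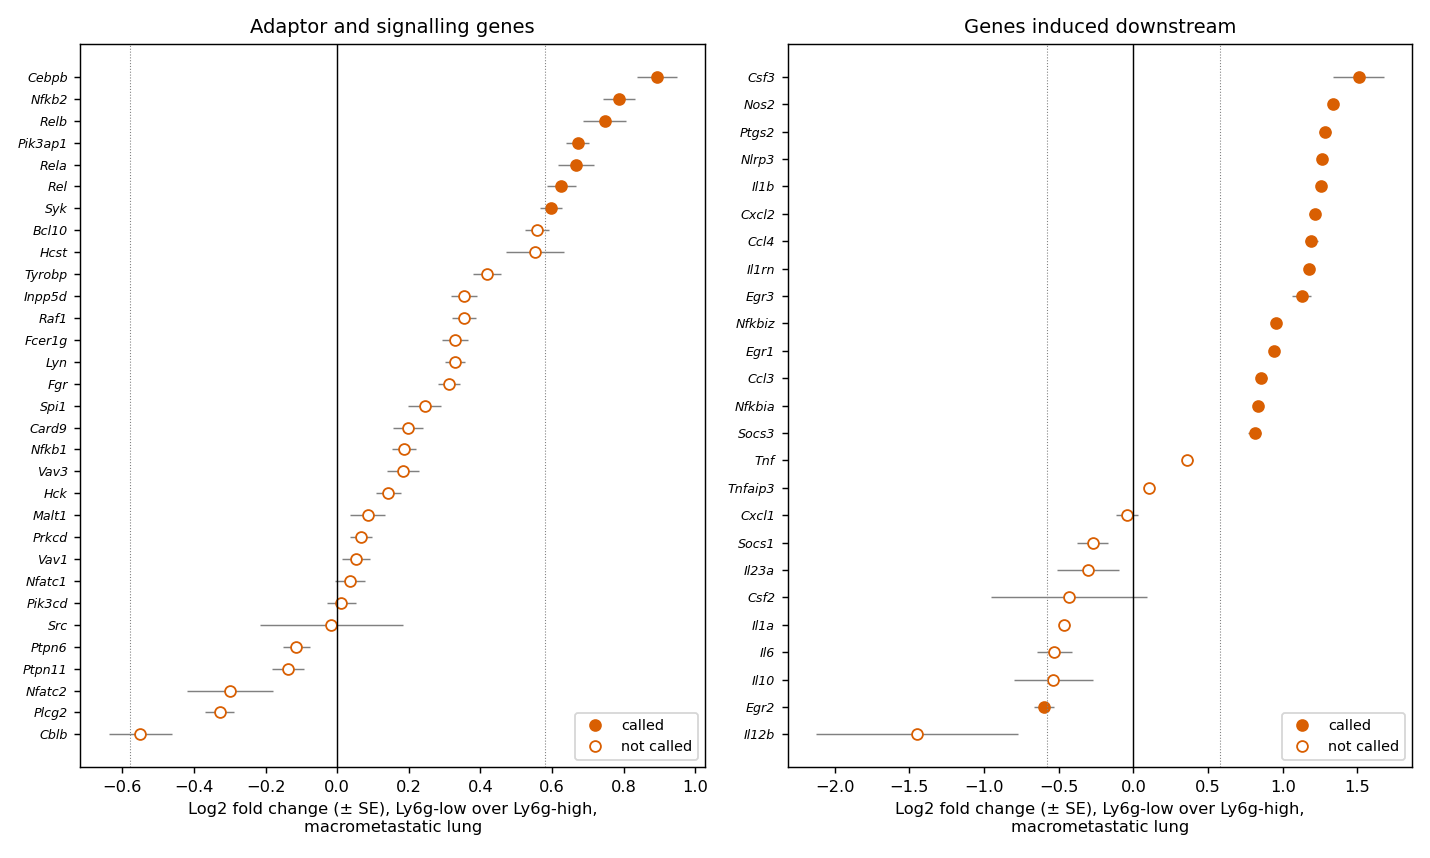
Log2 fold change of Ly6Glow over Ly6Ghi (x axis, bars are SE from 3 libraries a group) for 31 adaptor and signalling genes and 25 genes induced downstream, with filled points for called genes and dotted lines at 0.58 in both directions. In the left panel 7 genes are called, all higher, and in the right panel 14 are called higher and 1 lower.

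Further genes of C-type lectin receptors formed a list of 29. Of these 26 were tested, and in Ly6Glow against Ly6Ghi 4 rose and 6 fell, against 9.29% and 15.9% of all genes, with a median of -0.31. The mannose receptor gene Mrc1 fell with a log2 change of -2.05 (119 to 28.6 CPM), Ly75 with -1.18 and the oxidized LDL receptor gene Olr1 with -0.62, and Clec1a (0.78) and Clec2d (0.61) rose. In Ly6Ghi against NL 4 rose and 14 fell, with a median of -1.02, where 62.9% of all genes were called in either direction and 36.6% lower, led by Clec14a (-3.42), Mrc2 (-2.91) and Cd72 (-2.53). Clec4a1 rose by 0.73. In Ly6Glow against NL 4 rose and 15 fell, with a median of -1.29, where 69.5% of all genes were called in either direction and 40.8% lower, led by Mrc1 (-3.90), Clec14a (-3.20) and Cd72 (-3.12).

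Clec4a1, Clec4a3, Clec4b1 and Clec4b2 are close relatives of Clec4a2 in sequence. Clec4a3 stood at 31.5, 32.2 and 32.9 CPM in NL, Ly6Ghi and Ly6Glow with no call in the TMM-scaled edgeR fit, Clec4a1 at 10.6, 17.6 and 14.8, Clec4b1 at 2.28, 1.01 and 0.647, and Clec4b2 at 0.287, 0.931 and 0.929. Between Clec12a and Clec7a lie Clec12b, Clec1b, Clec9a and Clec1a, and none of these exceeded 32.6 CPM in a group mean. Of the 3 genes for endogenous ligands, Sap130 for Clec4e and Lgals9 (galectin-9) and Vim (vimentin) for Clec7a, Lgals9 rose by 1.08 and Sap130 by 0.65 in Ly6Ghi against NL, while Vim was at 0.16, and 0 of the 3 were called between the gates (Sap130 -0.04, Lgals9 0.33, Vim -0.30).

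The likeness of patterns was measured over the 9 libraries as the root mean square difference of log2 CPM after centring each gene. Candidates were 7391 genes with a mean of at least 10 CPM. A background of such differences was not computed, so the nearest genes are a description. For Clec4d and Clec4e the patterns include the difference between the gates that the pair was picked for. Nearest to Clec4d were Bcl2l11 (0.06), Basp1 (0.08) and Il1b (0.08), the gene of interleukin-1 beta. Nearest to Clec4e were Pla2g7 (0.06), Mefv (0.06) and Kdm3a (0.07), to Clec4n Tgm2, Gpx3 and Apol8 (0.07 to 0.08), and to Clec7a Atp2b1, Fem1c and Arih2 (0.05 to 0.07). Clec4a2 lay nearest Heatr6, Kri1 and Rabif (0.06 each), Clec5a nearest Olfm4, Rpe and Tiam2 (0.05 to 0.07), and Clec12a nearest Hmgn2, Lrmp and Hspa1b (0.07 to 0.09). Among the 7 themselves Clec4a2 and Clec5a were the closest pair (0.13), followed by Clec4a2 and Clec12a (0.31) and by Clec4d and Clec7a (0.33). The neighbours Clec4d and Clec4e differed by 0.51 and Clec4n and Clec5a, the farthest pair, by 1.63.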

How the data were processed

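RNA of sorted cells was made into poly(A)-selected, strand-specific libraries and sequenced in 9 samples, 3 a group. The authors deposited an estimated count and an FPKM value per gene and library, on the mouse build mm10 per the submitters' processing notes. The aligner and counter are not given in the sources used here, and 37.9% of the count values were whole numbers. Counts were rounded. Of 22064 listed genes 3739 had no values. Library totals were 15267177 to 17841807. Genes were filtered with filterByExpr (14108 kept), scaled by TMM and fitted with edgeR 4.0.16 (R 4.3.3) by the quasi-likelihood test over all 3 groups, with Benjamini-Hochberg adjustment. Calls needed an adjusted p no greater than 0.05 together with a log2 fold change beyond 0.58. Alternatives were DESeq2 1.42.0, other scalings and filters, a replicate block, each library left out, and limma 3.58.1 on the log2 scale of the deposited FPKM plus 1 or 0.1. The code was tested on simulated data.

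Named genes were all 7 receptors, fixed members of each list, up to 3 called increases and decreases per list and comparison with at least 10 CPM in the higher group and no overlap, the 3 nearest genes per receptor, and Ly6g. Rela, Rel and Nfkb1 were added to these as NF-kB subunit genes, and Ptpn11 and Inpp5d as phosphatase genes. The receptors, lists and tests were chosen with earlier results of these data known. Replicate numbers were not treated as pairs in the main fit.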

Additional observations from a re-analysis of the deposited data

How the results depend on the processing

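The alternatives on the FPKM scale changed the values, the scaling of the libraries and the test together. The median log2 difference of all genes went from -0.04 to -0.13 on the FPKM scale with a pseudocount of 1 for Ly6Glow against Ly6Ghi, from -0.09 to -0.32 for Ly6Ghi against NL and from -0.16 to -0.49 for Ly6Glow against NL. The calls went from 1310 higher and 2250 lower to 320 and 1923, from 3712 and 5162 to 1429 and 5134, and from 4049 and 5760 to 1125 and 6438. Other scalings of the counts moved the calls for Ly6Glow against Ly6Ghi less. These became 1320 and 2240 with the upper quartile and 1627 and 1967 with DESeq2 size factors. For Ly6Ghi against NL the upper quartile gave 2762 and 5755. With upper-quartile scaling Clec4a3 passed the adjusted p for Ly6Ghi against NL (0.0168, edgeR) and with at least 10 counts too (0.0305), within the bound. On the FPKM scale the adaptor and signalling genes called fell from 7 to 1 (2 with a pseudocount of 0.1) for Ly6Glow against Ly6Ghi and from 24 to 14 (15) for Ly6Glow against NL, and the other receptor genes called between the gates from 10 to 6. The FPKM values were used as deposited, without the TMM factors of the main fit. These factors were 1.30 to 1.32 in NL, 0.945 to 0.950 in Ly6Ghi and 0.803 to 0.807 in Ly6Glow. Their part in the changes on the FPKM scale was not tested.

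Some signs turned. For Ly6Glow against NL Clec7a was at -0.11 with upper-quartile scaling, -0.10 with at least 10 counts in every library, and -0.61 or -0.62 on the FPKM scale. On that scale Ly6g (-0.16), Card9 (-0.0270 or -0.0274), Malt1 (-0.16) and Clec4a3 (-0.24 or -0.23) turned between the gates, and Syk (-0.19), Cebpb (-0.0942 or -0.0943), Vim (-0.30) and Clec4a3 (-0.42 or -0.41) turned for Ly6Ghi against NL. In that comparison Vim was at -0.0302 and Clec4a3 at -0.16 with upper-quartile scaling, and at -0.0118 and -0.14 with at least 10 counts. Between the gates Clec4b2 turned to 0.0628 by DESeq2, to 0.0621 by edgeR on size factors of the former, and to 0.00163 when only the 6 libraries were fitted, and Sap130 to 0.0259 and 0.0257 under the former pair. With libraries left out in turn, Clec4b2 ran between -0.104 and 0.0553 and Sap130 between -0.113 and 0.00649 between the gates, and Clec4a3 between -0.00852 and 0.0915 there and between -0.0221 and 0.0748 against NL.

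The replicate block gave 1294 higher and 2228 lower calls for Ly6Glow against Ly6Ghi. Deviations of same-numbered libraries correlated between -0.07 and 0.06. These values cannot decide whether same-numbered libraries are paired, because technical spread between libraries is unrelated to pairing and was not separated here.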
